A study of Rattus norvegicus with 32 samples.

Results

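Cultured thymic epithelial cells taken from rats of 4 months were compared with those taken on postnatal day 1 (P1). The comparison covered 7 of the 16 cultures of the study and 14 of its 32 arrays. The members were chosen by the stage of origin in the labels, and both arrays of a culture were averaged before any test. The 4-month group held 4 cultures. PRP4mo_bulk and PRP4mo_Cl09 were profiled before grafting, Clone_907 after a first transplantation into skin and Clone_354 after a second. The P1 group held 3 cultures, PRP1cl11_VII before grafting, Clone_57 after a first transplantation and Clone_194 after a second. All donors were Sprague-Dawley rats carrying EGFP (green rat CZ-004), all cells were grown on an irradiated 3T3-J2 mouse feeder layer, and the recipients of the grafts were nude mice. All 3 P1 cultures were clonal, whereas 3 of the 4 from 4 months were bulk cultures and PRP4mo_Cl09 was the only clonal one, so growth form and stage are partly confounded. Among the grafted cultures of these stages they are fully confounded. The source names give the older stage as 4 months, whereas the dissection protocol lists P137 as its oldest stage, and the labels do not link these. They also do not say how many donors or clones stand behind a group, or whether the grafted cultures descend from the ungrafted ones named here. P-values therefore measure the spread between these cultures. A further 5 clonal thymic cultures from embryonic day 16 (E16) entered the model for its estimates of spread and of the transplantation effect. They also served as a reference level. The rest of the study consisted of 4 hair follicle cultures.

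Thymic epithelium is the stroma that guides developing T cells, and it depends on the transcription factor Foxn1. The organ grows around birth and begins to shrink in early adult life, when its epithelial compartment changes in composition and in its handling of oxidative stress. Quinone reductases such as Nqo1 and glutathione transferases such as Gsta4 detoxify reactive compounds, and many genes of this kind are known targets of the stress-responsive factor Nrf2.

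The 7 cultures were epithelial by their markers. Krt14, a basal keratin, lay at log2 signals between 13.06 and 13.35, and Epcam, an epithelial adhesion molecule, between 9.95 and 10.52. The log2 level of Foxn1 was 5.67 to 6.02, while the hair follicle cultures, which are not thymic, averaged 5.84 for it, so this gene did not mark the cells as thymic here. Isl1, a regulator of pharyngeal endoderm, was at 6.20 to 7.69 against a hair follicle mean of 4.42. Of 18 probe sets for markers of blood cells, 9 were under a log2 level of 4 in all 7 cultures, among them Ptprc, the pan-leukocyte marker, at 3.16 to 3.61. Levels under 4 may be background. The correlation between the arrays of a culture was 0.991 to 0.996 over these 7 cultures, and array medians ran from 5.31 to 5.50.

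The regions upstream of 4 genes of quinone and glutathione metabolism are shown first, because each was higher in the 4-month cultures. They were grouped after their values were seen. Each run is the 250 bases before the annotated start, 5′ to 3′ on the gene's strand, from RefSeq for the GRCr8 build. Capitals mark matches to the GC box GGGCGG, to CCAAT and to TATAAA on either strand.
Nqo1, chr19:52220268-52220517, minus strand: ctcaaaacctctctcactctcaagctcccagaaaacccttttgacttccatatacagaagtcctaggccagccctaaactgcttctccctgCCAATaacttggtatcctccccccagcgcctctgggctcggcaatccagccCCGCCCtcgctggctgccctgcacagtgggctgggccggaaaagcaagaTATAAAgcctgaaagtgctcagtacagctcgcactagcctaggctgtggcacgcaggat
Nqo2, chr17:31143663-31143912, minus strand: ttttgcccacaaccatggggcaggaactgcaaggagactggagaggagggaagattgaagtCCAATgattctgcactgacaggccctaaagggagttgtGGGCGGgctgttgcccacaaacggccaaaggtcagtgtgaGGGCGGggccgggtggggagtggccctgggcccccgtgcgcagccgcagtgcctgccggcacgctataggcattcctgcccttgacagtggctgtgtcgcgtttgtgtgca
Gsta4, chr8:87947015-87947264, plus strand: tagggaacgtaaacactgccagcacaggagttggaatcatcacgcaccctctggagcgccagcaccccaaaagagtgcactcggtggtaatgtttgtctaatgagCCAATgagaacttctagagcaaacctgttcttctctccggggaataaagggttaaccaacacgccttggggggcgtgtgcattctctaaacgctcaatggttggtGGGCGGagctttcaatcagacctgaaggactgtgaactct
Gstm2, chr2:198316918-198317167, minus strand: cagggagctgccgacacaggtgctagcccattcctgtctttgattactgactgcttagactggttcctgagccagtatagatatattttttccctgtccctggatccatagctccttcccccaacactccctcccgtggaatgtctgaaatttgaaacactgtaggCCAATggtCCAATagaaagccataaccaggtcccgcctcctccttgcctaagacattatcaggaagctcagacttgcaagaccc
A CCAAT match was present in all 4 windows, against 34.0% of the 33469 promoters in the table. GGGCGG was present in those of Nqo1, Nqo2 and Gsta4, against 30.5% of all promoters, and TATAAA in that of Nqo1, against 12.9%. The core letters of the antioxidant response element, TGACNNNGC, had no match in any of the 4 windows and one in 10.1% of all promoters. That absence concerns these 250 bases alone, and a match describes letters, not binding.

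Expression differed by stage at few genes. Of 15316 probe sets with a single gene symbol, 54 (0.353%) passed an adjusted p of 0.05 in limma, with transplantation state in the model. Of these, 24 (0.157%) were higher at 4 months and 30 (0.196%) were lower. P1 and 4-month cultures had no overlap in 45 of the 54, 21 higher and 24 lower, against 1326 (8.66%) of all probe sets tested. Overlap is scored on the culture values that gave the calls, so a greater share among called probe sets is no separate evidence. Called differences ran from 0.47 to 2.81 in size on the log2 scale, and the median difference over all probe sets was 0.00. Each of the 54 differed in the same direction before grafting, after the first and after the second transplantation, as the plot of differences by state shows. The calls rest on these same differences, so this agreement is no separate evidence. Its share over all probe sets was not counted. The calls depended on the whole set of cultures. In a fit of the 7 cultures alone none passed (1781 at an unadjusted p under 0.05). With bulk or clonal form in the model none passed either (528). The differences in the fit with form were -3.52 for Plscr2, 2.66 for Nqo2 and 1.07 for Acadsb (limma adjusted p = 0.382, 0.717 and 0.996). Others moved either way from the main fit to that one, Irf8 from 1.64 to 1.10, Clybl from -1.61 to -1.28 and Scrn1 from -2.03 to -2.40. The count was also 0 without Clone_57 or without Clone_354, 2 without Clone_194, 3 without Clone_907, 6 without PRP4mo_Cl09, 10 without PRP4mo_bulk, 11 without Clone_217 and 34 without Clone_347, the last pair being E16 cultures. The direction of all 54 was the same in each of these fits. Nqo2 and Coq5 stayed past the threshold in 9 of the 12 fits that left out 1 culture, Plscr2 and Plxdc2 in 8 and Acadsb in 7. Several genes described below stayed in fewer. Gstm2 did so in 6, Irf8, Scrn1 and Clybl in 5 and Nqo1 in 4. Gsta4 did so in 4 and 2 on its probe sets, Inpp5d in 1 and Chst3 in 0. None of the 54 stayed in all 12.

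**Figure D1:**
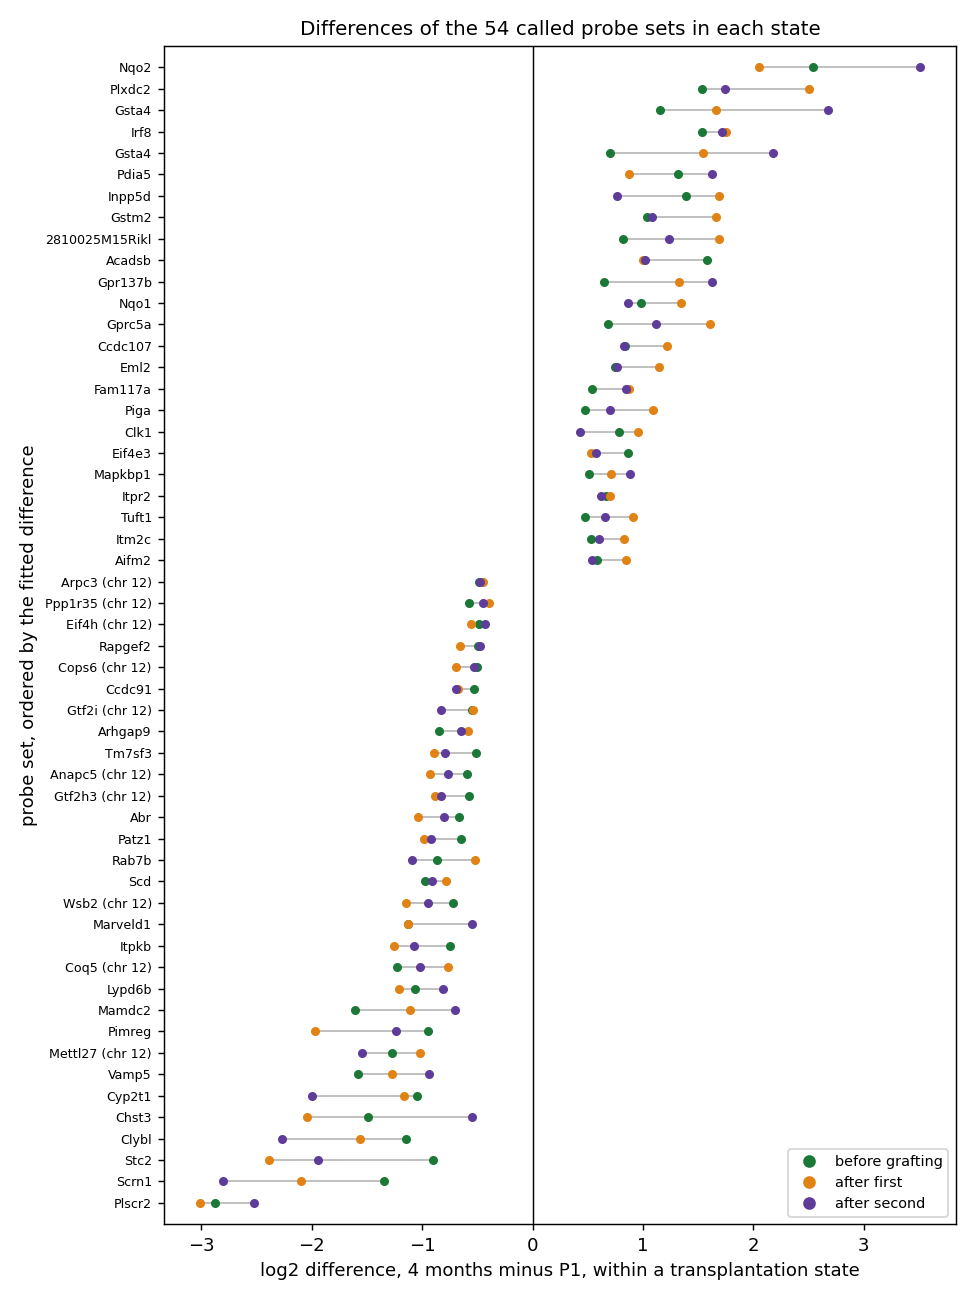
Log2 differences between 4-month and P1 cultures (horizontal axis) for the 54 called probe sets (vertical axis), taken separately before grafting and after each transplantation. Every point of a probe set lies on the same side of 0, and those of Plscr2 lie between -3.01 and -2.52. The probe sets were called on these same cultures, so the agreement between states is no separate evidence.

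Plscr2, a member of the phospholipid scramblase family, showed the greatest decrease. It is one of the genes for which the comparison was chosen, so its call is no independent finding. Its log2 level in the P1 cultures was 7.62 in PRP1cl11_VII, 7.04 in Clone_57 and 6.41 in Clone_194. In the 4-month cultures it was 5.31 in PRP4mo_bulk, 4.17 in PRP4mo_Cl09, 4.03 in Clone_907 and 3.89 in Clone_354. The groups did not overlap, and within each group the ungrafted cultures held the highest level. The fitted log2 difference was -2.81 ± 0.32 (limma SE, 4 against 3 cultures, adjusted p = 0.0236), a fitted fold of 7.01. Clone_354 was under a level of 4, where the signal may be background. The difference was -2.88 before grafting, -3.01 after the first and -2.52 after the second transplantation. E16 cultures ran from 6.55 to 8.28, above every 4-month culture and overlapping the P1 cultures. Of the other scramblase genes measured, Plscr1 (0.07 ± 0.31), Plscr3 (0.18 ± 0.09), Plscr4 (-0.03 ± 0.56), Ano6 (-0.28 ± 0.10) and Tmem41b (-0.01 ± 0.23) did not pass, with limma adjusted p between 0.374 and 0.997. Plscr1 and Plscr4 lie on the same chromosome, 8, as Plscr2.

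Acadsb, the mitochondrial dehydrogenase for short and branched-chain acyl-CoA in isoleucine breakdown, was higher at 4 months. Its log2 level was 4.62 in PRP1cl11_VII, 4.53 in Clone_57 and 4.71 in Clone_194. It was 6.43 in PRP4mo_bulk, 5.97 in PRP4mo_Cl09, 5.53 in Clone_907 and 5.73 in Clone_354. The P1 cultures were close together, and all 4-month cultures lay above them, the ungrafted ones highest. The difference was 1.23 ± 0.15 (limma, adjusted p = 0.0252), or 2.35-fold. The E16 cultures, at 4.51 to 5.08, overlapped the P1 cultures and lay below all 4-month cultures. Within branched-chain amino acid breakdown 1 of 23 probe sets, that of Acadsb, passed and 22 did not, against 0.353% of all probe sets, with a median difference of 0.12 against 0.00 over all probe sets. Acadsb is one of the genes for which the comparison was chosen, so this count adds nothing to it. Hibadh, an enzyme of valine breakdown, was nearest the threshold among the 22, at 0.71 ± 0.16 (limma adjusted p = 0.0908). Among the acyl-CoA dehydrogenases 9 of 10 did not pass. Of these, Acad11 differed by 0.70 ± 0.14 (limma adjusted p = 0.0765), Acadl by 0.49 ± 0.10 (limma adjusted p = 0.0787) and Acads by -0.45 ± 0.15 (limma adjusted p = 0.262). Of 21 probe sets for mitochondrial fatty acid oxidation none passed, and 13 had a positive difference. Acaa2 was nearest the threshold among them (limma adjusted p = 0.0508).

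**Figure D2:**
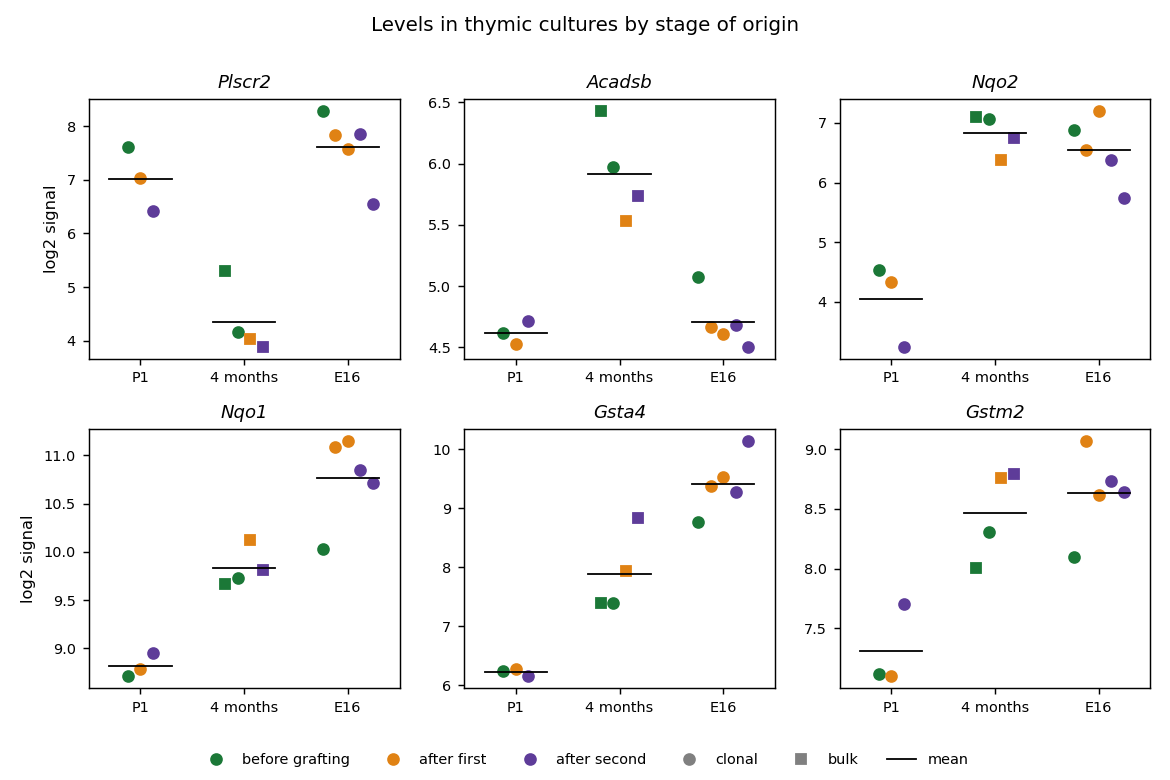
Log2 signal (vertical axis) of Plscr2, Acadsb, Nqo2, Nqo1, Gsta4 (the probe set with the greater difference) and Gstm2 in each P1, 4-month and E16 thymic culture, coloured by transplantation state, with squares for bulk cultures and a line at the mean of each group. The vertical axes differ between genes and do not start at 0. P1 and 4-month cultures do not overlap for any of the 6 genes, and the E16 cultures lie beside P1 for Plscr2 and Acadsb but beside or above the 4-month cultures for the others. All 6 met a naming rule that required no overlap, so its absence is no separate evidence. Over all probe sets tested, 8.66% had no overlap.

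The quinone reductase Nqo2 showed the greatest increase. Its log2 level was 4.54 in PRP1cl11_VII, 4.34 in Clone_57 and 3.25 in Clone_194. It was 7.10 in PRP4mo_bulk, 7.07 in PRP4mo_Cl09, 6.39 in Clone_907 and 6.76 in Clone_354. The P1 cultures were low and near background, and the difference of 2.69 ± 0.26 (limma, adjusted p = 0.0206) corresponds to a fitted fold of 6.47. Clone_194 was under 4, where the signal may be background. E16 cultures, at 5.74 to 7.20, overlapped the 4-month ones. Its relative Nqo1, which reduces quinones with NAD(P)H, was at 8.71, 8.79 and 8.95 in PRP1cl11_VII, Clone_57 and Clone_194. It was at 9.67, 9.73, 10.13 and 9.81 in PRP4mo_bulk, PRP4mo_Cl09, Clone_907 and Clone_354. The groups did not overlap (1.09 ± 0.16, limma adjusted p = 0.0337), and the E16 cultures, at 10.03 to 11.15, were higher still in 4 of 5 cases than any 4-month culture.

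Glutathione transferases of 2 classes were higher too. Gsta4, which conjugates the lipid peroxidation product 4-hydroxynonenal, had 2 probe sets. The first lay at 6.24, 6.28 and 6.15 in PRP1cl11_VII, Clone_57 and Clone_194, and at 7.39, 7.40, 7.93 and 8.83 in PRP4mo_bulk, PRP4mo_Cl09, Clone_907 and Clone_354. Its difference was 1.77 ± 0.26 (limma adjusted p = 0.0337), and that of the other probe set was 1.41 ± 0.23 (limma adjusted p = 0.0476). E16 cultures were at 8.76 to 10.14 on the first probe set. The grafted 4-month cultures were above the ungrafted ones, so that the difference from P1 was 1.15 before grafting, 1.66 after the first and 2.68 after the second transplantation. Gstm2, a transferase of the mu class, was at 7.12, 7.10 and 7.71 in PRP1cl11_VII, Clone_57 and Clone_194. It was at 8.01, 8.30, 8.76 and 8.79 in PRP4mo_bulk, PRP4mo_Cl09, Clone_907 and Clone_354, and its difference was 1.25 ± 0.17 (limma adjusted p = 0.0322). Glutathione transferases have close relatives in the rat genome, so probe sets may also read a paralogue.

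Most of the oxidative and xenobiotic defence list did not pass. Of its 30 probe sets, 4 were higher (Nqo1, Gstm2 and both of Gsta4), none was lower and 26 did not pass, against 0.157% of all probe sets higher, and the median was 0.10 against 0.00 over all probe sets. Hmox1, haem oxygenase, differed by 0.12 ± 0.32, Gclc and Gclm, which make the rate-limiting enzyme of glutathione synthesis, by 0.08 ± 0.11 and -0.11 ± 0.24, Txnrd1, thioredoxin reductase, by -0.06 ± 0.27 and Srxn1, sulfiredoxin, by 0.15 ± 0.13 (limma adjusted p of 0.82 to 0.98). Gstm1 differed by 0.96 ± 0.55 (limma adjusted p = 0.653) and Gstp1 by -0.14 ± 0.13 (limma adjusted p = 0.863). Aifm2, which reduces coenzyme Q in membranes and was picked after its values were seen, was at 6.30 to 6.45 in P1 and at 6.94 to 7.15 in 4-month cultures (0.63 ± 0.10, limma adjusted p = 0.0407). Coq5, a methyltransferase of coenzyme Q synthesis, was at 9.12, 9.24 and 9.12 in P1 and at 7.95, 7.85, 8.48 and 8.10 in 4-month cultures (-1.02 ± 0.11, limma adjusted p = 0.0211). Coq5 lies on chromosome 12, where lower values at 4 months were general.

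Genes on chromosome 12 were lower at 4 months than at P1 along the whole chromosome. This pattern was picked after the values were seen, and no p-value is attached to it. Chromosomes were taken from RefSeq for GRCr8, since the sources used here do not name a build for the array. Of 436 probe sets on chromosome 12, 10 were called, all lower, which is 2.29% of them against 0.353% of all. In all, 382 (87.6%) had a negative difference, while on the other chromosomes this share was 46.1 to 58.4%. Among these 436, 163 were lower with no overlap of the culture values and 1 was higher. The share without overlap was 37.6%, against 6.21 to 10.8% on the other chromosomes. Among the 299 probe sets with a mean log2 level of at least 6, 277 (92.6%) were negative and the median difference was -0.36, which is 1.28-fold. The medians of the other chromosomes lay between -0.06 and 0.08. The difference was small where the signal was low, with a median of -0.01 below a level of 4 and -0.08 between 4 and 6.

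Each P1 culture stood apart in this respect. Relative to the E16 mean, the median over chromosome 12 was 0.32 in PRP1cl11_VII, 0.36 in Clone_57 and 0.38 in Clone_194. It was -0.01 in PRP4mo_bulk, 0.02 in PRP4mo_Cl09, 0.04 in Clone_907 and 0.03 in Clone_354. The E16 cultures themselves ran from -0.05 to 0.03 and the 4 hair follicle cultures from -0.04 to 0.06. Over the other chromosomes the medians of these 7 thymic cultures stayed between -0.10 and 0.13. The P1 cultures thus departed from the 3 other origins, and the 4-month cultures did not. The difference between the stages was -0.33 in every transplantation state, and -0.35 when only clonal cultures were used.

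**Figure D3:**
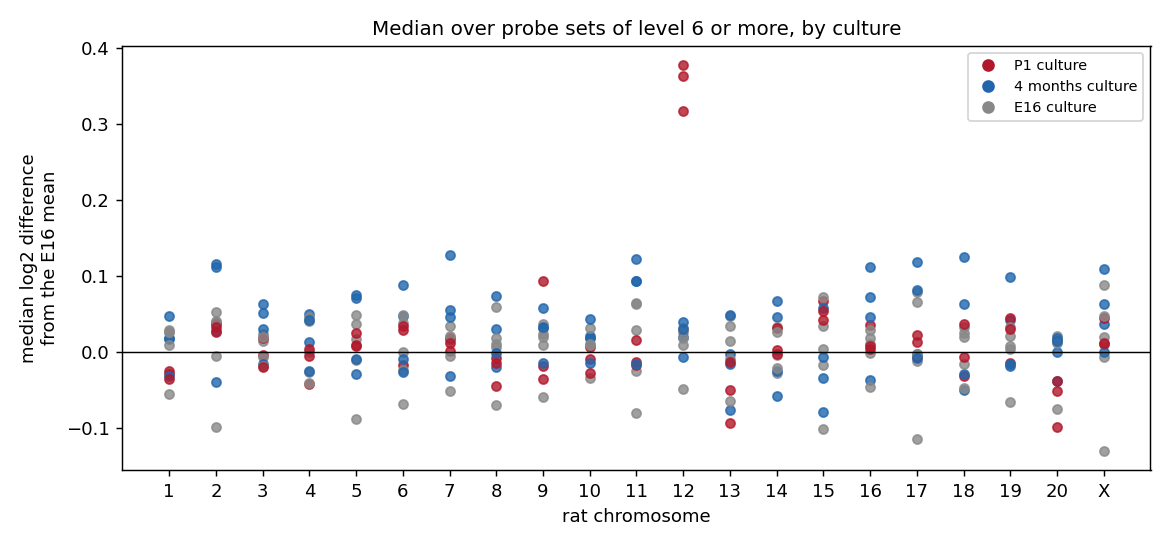
Median log2 difference from the E16 mean (vertical axis) for each rat chromosome (horizontal axis) in each thymic culture, over probe sets with a mean log2 level of at least 6. The 3 P1 cultures sit at 0.32 to 0.38 on chromosome 12, where the 4-month cultures are between -0.01 and 0.04.

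The shift ran from one end of the gene order to the other. When the 299 probe sets were divided into 10 consecutive blocks, every P1 culture was above every 4-month culture in all 10 blocks. Block medians relative to E16 were 0.12 to 0.56 in P1 cultures and -0.16 to 0.22 in 4-month cultures. The smallest stage difference was -0.17, in the second block, from Cdx2 to Ptcd1, and the greatest was -0.44, in the last, from Git2 to Gtpbp6. DNA was not analysed here. Leaving chromosome 12 out of the test left 24 calls, 13 higher and 11 lower, all among the 54.

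**Figure D4:**
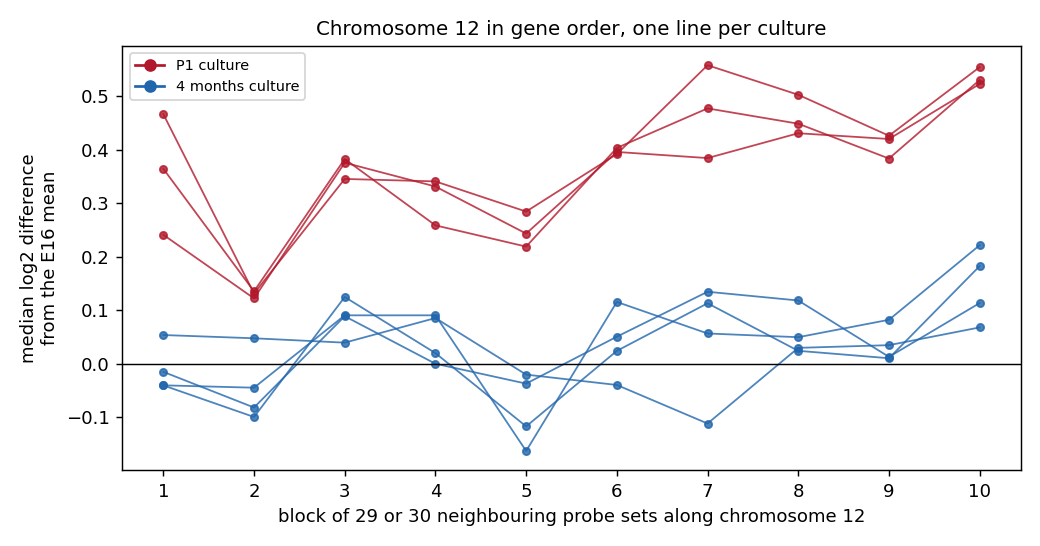
Median log2 difference from the E16 mean (vertical axis) in 10 blocks of neighbouring probe sets along chromosome 12 (horizontal axis), with a line for each P1 and 4-month culture. The lines of the P1 cultures stay above those of the 4-month cultures in every block.

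Beside Coq5, the called genes of chromosome 12 included Anapc5, a subunit of the anaphase-promoting complex, at 10.85 to 11.01 in P1 and 9.93 to 10.33 in 4-month cultures (-0.74 ± 0.10, limma adjusted p = 0.0322). Wsb2, a substrate receptor for ubiquitin ligases, was at 10.58 to 10.66 in P1 and 9.43 to 9.97 in 4-month cultures (-0.92 ± 0.13, limma adjusted p = 0.0322). Mettl27, a methyltransferase-like gene, was at 8.20 to 8.42 in P1 and 6.65 to 7.29 in 4-month cultures, with the greatest difference among the 10 called on the chromosome (-1.31 ± 0.18, limma adjusted p = 0.0322). The others were the transcription factors Gtf2i (-0.64) and Gtf2h3 (-0.75), the translation initiation factor Eif4h (-0.49), the COP9 signalosome subunit Cops6 (-0.57), the phosphatase regulator Ppp1r35 (-0.48) and the actin nucleation subunit Arpc3 (-0.47), each with limma adjusted p of at most 0.0492. These 6 and Anapc5 were picked after their values were seen. None of the 10 overlapped between the groups. The share without overlap was 37.6% over chromosome 12 and 8.66% over all probe sets. The calls rest on these same culture values, so this is no separate evidence.

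Apart from those placed on chromosome 12, 44 probe sets were called, 24 higher and 20 lower. Marveld1, among the lower ones, was not placed on any chromosome. Plxdc2, a plexin-domain membrane protein, was at 8.25, 7.53 and 8.16 in PRP1cl11_VII, Clone_57 and Clone_194 and at 9.68 to 10.03 in all 4-month cultures (1.90 ± 0.22, limma adjusted p = 0.0236). Gprc5a, an orphan receptor induced by retinoic acid, was at 8.74 to 9.62 in P1 and 10.07 to 10.54 in 4-month cultures (1.09 ± 0.18, limma adjusted p = 0.0477). Pdia5, a protein disulphide isomerase of the endoplasmic reticulum, was at 5.83 to 6.24 in P1 cultures, at 6.70 in Clone_907 and at 7.49 to 7.63 in the other 4-month cultures (1.29 ± 0.17, limma adjusted p = 0.0322). Increases of 0.73 to 1.24 were also seen for 2810025M15Rikl, Ccdc107, the microtubule-binding protein gene Eml2 and Fam117a, with limma adjusted p of 0.0322 to 0.0476.

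Irf8 and Inpp5d, best known from blood cells, were also higher. Irf8, an interferon regulatory factor, was at 6.90, 6.33 and 6.44 in PRP1cl11_VII, Clone_57 and Clone_194. It was at 8.80 in PRP4mo_bulk, 8.06 in PRP4mo_Cl09, 8.09 in Clone_907 and 8.15 in Clone_354 (1.64 ± 0.23, limma adjusted p = 0.0322). Inpp5d, the lipid phosphatase SHIP1, was at 5.87 to 6.52 in P1 and at 7.29 to 7.56 in 4-month cultures (1.28 ± 0.21, limma adjusted p = 0.0442). Of the 18 probe sets for blood cell markers none was called, against 0.353% of all probe sets. Their mean log2 level was 4.04 to 4.17 in P1 and 4.10 to 4.27 in 4-month cultures, and Ptprc, Cd3e and Cd4 stayed under 4 in all 7. Cd68, a lysosomal marker of macrophages, ranged from 5.17 to 7.92 over the cultures (0.59 in the fit, limma adjusted p = 0.858). In bulk RNA, fewer cells of a type and less RNA per cell cannot be told apart.

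Several decreases were sizeable. Scrn1, secernin, was at 7.33, 7.49 and 8.05 in PRP1cl11_VII, Clone_57 and Clone_194 and at 6.43, 5.55, 5.40 and 5.25 in PRP4mo_bulk, PRP4mo_Cl09, Clone_907 and Clone_354 (-2.03 ± 0.30, limma adjusted p = 0.0337). Clybl, a mitochondrial citramalyl-CoA lyase, was at 5.83 to 6.56 in P1 and 4.29 to 4.99 in 4-month cultures (-1.61 ± 0.23, limma adjusted p = 0.0322). Chst3, which sulfates chondroitin, was at 6.64 to 7.28 in P1 and 4.94 to 6.25 in 4-month cultures (-1.38 ± 0.22, limma adjusted p = 0.043). The SNARE gene Vamp5 differed by -1.31 ± 0.20 (limma adjusted p = 0.0337), and Pimreg, a mitotic gene, by -1.30 ± 0.22 (limma adjusted p = 0.0477). Mamdc2, Lypd6b, the inositol phosphate kinase Itpkb, Marveld1 and the zinc finger gene Patz1 were lower by log2 differences between -1.17 and -0.82, with limma adjusted p of 0.0269 to 0.0477. Of these, Mamdc2 and Patz1 had 4-month cultures under a level of 4. Stc2, stanniocalcin 2, passed although its groups overlapped, at 7.38, 9.75 and 9.38 in P1 and 6.35 to 7.43 in 4-month cultures (-1.63 ± 0.26, limma adjusted p = 0.0407), and was picked after its values were seen.

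The E16 level placed most called genes nearer to the 4-month cultures. The E16 mean was nearer to the 4-month mean for 44 of the 54 probe sets and nearer to the P1 mean for 10, and on chromosome 12 for 9 and 1. The comparisons share their samples, so these counts describe where the third stage lay and are no separate evidence. Among the 54, the E16 cultures overlapped the 4-month cultures but stood clear of the P1 cultures for 37, and they overlapped P1 but stood clear of 4 months for 2, Plscr2 and Acadsb. For Plscr2 the 4-month minus E16 difference was -3.52 and the P1 minus E16 difference -0.70. For Acadsb they were 1.09 and -0.14. For Nqo2, by contrast, the values were 0.12 and -2.58, for Scrn1 0.04 and 2.08, for Plxdc2 0.23 and -1.67, and for Clybl 0.07 and 1.68. Gsta4 and Nqo1 lay in between, with 4-month minus E16 differences of -1.33 and -0.80 and P1 minus E16 differences of -3.11 and -1.89. Cyp2t1, a cytochrome P450 gene, and Rab7b, an endosomal GTPase gene picked after its values were seen, had E16 cultures that overlapped both groups. Their 4-month minus E16 differences were -1.57 and -0.76, and their P1 minus E16 differences -0.21 and 0.07.

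None of the developmental and identity genes of the panel was called. Bbs10, a chaperonin-like gene needed to assemble the BBSome of cilia, was at 5.83 to 6.40 in P1 and 5.53 to 6.12 in 4-month cultures (-0.31 ± 0.21, limma adjusted p = 0.755), while E16 cultures were at 4.10 to 4.80. Pax9, a pharyngeal pouch factor, was at 8.65, 7.53 and 6.81 in PRP1cl11_VII, Clone_57 and Clone_194 and at 8.48 to 9.54 in 4-month cultures (1.20 ± 0.28, limma adjusted p = 0.111). Isl1 was at 6.20 to 6.77 in P1 and 6.84 to 7.69 in 4-month cultures without overlap (0.68 ± 0.15, limma adjusted p = 0.0929). Krt8, a keratin of simple epithelia, differed by 1.28 ± 0.39 and 1.5 ± 0.45 on its probe sets (limma adjusted p = 0.222 and 0.219), and its highest P1 level, 10.82 in PRP1cl11_VII, was above both grafted 4-month cultures. Cd74, the invariant chain of MHC class II, differed by 1.23 ± 0.46 (limma adjusted p = 0.379). Foxn1 (0.13 ± 0.13), Krt14 (0.07 ± 0.09), Tp63 (0.01 ± 0.13), Igf2 (-0.09 ± 0.15), Hmga2 (-0.35 ± 0.26) and Lgals7 (-0.22 ± 1.06) had limma adjusted p of 0.788 to 0.991. For H19, an imprinted RNA of fetal tissue, the probe sets gave -0.51 ± 0.16 and -0.39 ± 0.18 (limma adjusted p = 0.254 and 0.517).

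Cdkn2a, the senescence-associated cell cycle inhibitor, was not called, and its spread was wide. Its level was 10.44, 10.29 and 10.05 in PRP1cl11_VII, Clone_57 and Clone_194 and 9.88, 9.94, 8.04 and 4.43 in PRP4mo_bulk, PRP4mo_Cl09, Clone_907 and Clone_354. The groups did not overlap, and the fitted difference was -2.75 ± 0.97 (limma adjusted p = 0.333). It was -0.53 before grafting, -2.25 after the first and -5.62 after the second transplantation. In E16 cultures it was at 9.79 in PRE16cl11_VII and at 3.79 to 4.49 in the others.

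Gene lists beyond those named showed no call. Of 41 lists, 36 had none, and the other 5 were those that hold Plscr2, Acadsb or the quinone and glutathione genes. Since 0.353% of all probe sets were called, lists this short would mostly hold none. A list without a call is therefore not shown to be unchanged. None of 29 cell cycle probe sets passed, with a median of -0.28 and 5 positive. None of 21 thymic epithelial function probe sets passed (median -0.03), though Ctsl lay just outside the threshold (limma adjusted p = 0.0501). None passed either of 12 for MHC class II presentation (0.15), 21 for the interferon response (-0.01), 20 for p53 and senescence (0.16), 12 for basal keratinocytes (0.21) or 20 for fibroblasts and feeder cells (-0.05). The fibroblast markers had a mean level of 5.54 to 5.86 in P1 and 5.37 to 6.16 in 4-month cultures. Vim, the mesenchymal filament gene among them, ranged from 7.40 to 11.21 over the 7 cultures (-1.94 in the fit, limma adjusted p = 0.375).

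The stage difference was not shown to depend on grafting. The difference between grafted and ungrafted cultures in the 4-month minus P1 contrast was tested as an interaction, and 0 of 15316 probe sets (0%) passed in limma, with 447 at an unadjusted p under 0.05 and a smallest adjusted p of 0.131. The interaction was 0.11 ± 0.72 for Plscr2 and -0.57 ± 0.27 for Acadsb. Without PRP4mo_Cl09 the interaction called 3 probe sets, Krt12, Cyria and Nts. With 1 ungrafted P1 culture the design gives this test little precision. Both grafted 4-month cultures were bulk and both grafted P1 cultures were clonal. The interaction is therefore also confounded with growth form.

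Levels most like those of Plscr2 over the 12 thymic cultures were found for Cyp2t1, a cytochrome P450 (Pearson r = 0.80), Id4 (0.80), Otop1 (0.80), Crat (0.79) and Lrtomt (0.78). Of these Cyp2t1 was called (-1.36 ± 0.21, limma adjusted p = 0.0356). For Acadsb the closest were Zmym6 (0.93), the transcription factor gene Maf (0.92), Pdia5 (0.92), Lca5l (0.90) and Tmem14a (0.90). Maf was at 5.70 to 6.30 in P1 and 6.61 to 7.43 in 4-month cultures (0.91 ± 0.16, limma adjusted p = 0.0501). These are descriptions over cultures that share state and stage.

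Over all genes the cultures did not sort by stage. The root mean square log2 difference between a P1 and a 4-month culture was 0.317 to 0.549 (median 0.456, 12 pairs). It was 0.258 to 0.44 within P1 (3 pairs) and 0.298 to 0.592 within 4 months (6 pairs). The ungrafted PRP1cl11_VII was closer to the ungrafted PRP4mo_Cl09 (0.317) than to its P1 counterparts Clone_57 (0.372) and Clone_194 (0.44).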

How the data were processed

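The deposited values were log2 probe set signals. The submitters' processing notes name RMA and Affymetrix Expression Console as the authors' tools; versions are not given in the sources used here. Of 29215 probe sets, 15316 carried exactly 1 gene symbol (14511 genes) in the platform annotation, 317 several and 13582 none. Both arrays of a culture were averaged. The 12 thymic cultures were fitted with limma 3.58.1 in R 4.3.3 (lmFit, eBayes) on stage and transplantation state, with 7 residual degrees of freedom. P-values were adjusted by Benjamini-Hochberg over all 15316, with a threshold of 0.05. The Entrez gene of 15279 probe sets was found in RefSeq. On simulated data with 200 changed genes among 15316, 80.3% of differences of 1 log2 unit were recovered and 4.37% of calls were false. The simulated noise was normal and independent between genes and cultures, with no effect of transplantation state or growth form. These shares therefore check the fit under those settings and do not give the rates for the real cultures. Array numbers showed no common direction over the cultures: array 1 minus array 2 correlated by -0.64 to 0.57 over 66 culture pairs, with a median of -0.02. The correlation was over 0.1 in 13 pairs, so some cultures shared array differences. The members and gene lists were chosen with earlier results of these data known. Named genes were the 15 greatest called differences in each direction without overlap, a panel, called list members (at most 4 a list) and the 5 probe sets most like Plscr2 and Acadsb. The number of arrays limits the precision.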

Additional observations from a re-analysis of the deposited data

Results flagged for a closer look

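Of 77 values examined in the 4-month group, 3 had 1 culture standing apart from the other 3 by Dixon's criterion, and chance marks about 1 in 20 groups. Pdia5 was at 6.70 in Clone_907 and at 7.49 to 7.63 in the others. Irf8 was at 8.80 in PRP4mo_bulk and at 8.06 to 8.15 in the others. One H19 probe set was at 4.99 in PRP4mo_bulk and at 5.15 to 5.18 in the others.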

How the results depend on the processing

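The 54 calls kept their direction in every alternative in which they were tested, but none of the 54 passed in all of them. The count of called probe sets (higher, lower) was 20 (10, 10) without transplantation state, 36 (21, 15) with array 1 of each culture alone and 17 (5, 12) with array 2. It was 38 (21, 17) with arrays centred on their medians, which moves the share of increases from 44.4 to 55.3%. It was 128 (64, 64) over all probe sets, and 1 (1, 0; Slc2a3) in clonal cultures. No call was made with 7 cultures only, with bulk or clonal form as a covariate, or with ungrafted and once-grafted cultures only (1250 at an unadjusted p under 0.05). With single arrays and the culture as a random block it was 625 (313, 312), and 598 (295, 303) with array number as a replicate block added; that p can be too small where genes vary between cultures. Other choices were added after seeing the data: without chromosome 12 it was 24 (13, 11), and with each chromosome centred in each culture 24 (10, 14), with none on chromosome 12. Leaving out 1 culture at a time gave 0 to 57 calls, 0 to 26 higher and 0 to 34 lower. The 3 calls without Clone_907 were Pdia5, Coq5 and Nqo2, and the 2 without Clone_194 were Mamdc2 and Pln. The median difference of chromosome 12 was -0.26 over probe sets of level 4 or more and -0.23 over all, where it includes dim probe sets, and -0.37 to -0.33 with 1 culture left out. The interaction called 3 probe sets with trend and robust settings (Krt12, Fezf1, Slc2a3) and 0 to 3 with 1 culture left out, the 3 being Krt12, Cyria and Nts without PRP4mo_Cl09. Where no value is given, the cause of a changed count was not tested. The fit without PRP1cl11_VII has no interaction, since it leaves no ungrafted P1 culture.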
